A study of Bos taurus with 8 samples.

Results

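The genes described here are 10 vascular and angiogenic genes, TEK, PECAM1, LYVE1, KDR, FLT1, VEGFA, PGF, ANGPT1, ANGPT2 and EPAS1, in the endometrium of 8 cows. A probe was taken for a gene when the array annotation gave that symbol as its gene name or in its description. This found 24 probes for 9 of the 10 genes, of 43653 noncontrol probes on the array, and 12809 gene symbols had a tested probe in all. No probe carried the symbol FLT1. The array has 3 probes annotated only as a VEGF-receptor (Flt-receptor) fragment, and they are given beside the 9 genes and not counted with them.

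In vessels, VEGFA and PGF are secreted growth factors, and the receptor tyrosine kinases encoded by KDR and FLT1 bind them on endothelial cells. VEGFA drives endothelial growth and permeability through the KDR product, while PGF binds the FLT1 product. ANGPT1 encodes the activating ligand of the TEK product, and ANGPT2 a ligand of the same receptor that can oppose it. PECAM1 encodes an adhesion protein of endothelial cells, platelets and leukocytes, LYVE1 a hyaluronan receptor of lymphatic endothelium and of some macrophages, and EPAS1 a hypoxia inducible transcription factor subunit. The endometrium rebuilds its vessels in each estrous cycle.

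Each uterine horn of a cow received 25 mL of fluid on day 1, day 0 being standing estrus, and tissue of the horn beside the corpus luteum was biopsied on day 7. The fluid held 5 mM methylglyoxal in 4 cows and 0 mM in the other 4. Methylglyoxal is a reactive dicarbonyl made during glycolysis that glycates proteins. Each biopsy was hybridised to its own one-colour Agilent array, and no cows were pooled as far as the labels tell. Breed and age were not given in the sources used here. A level below is the log2 processed signal of a probe minus the log2 of the 75th percentile of that array, and a difference is 5 mM minus 0 mM. Levels of different probes depend on the probe, so they were compared between cows. The one quantity that joins 2 probes is a log ratio of ANGPT2 to ANGPT1, whose 0 depends on the probes, so that only its differences between cows can be read.

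Between 68.3% and 73.2% of probes were well above background on each array, and the 75th percentile lay between 1032 and 1456 signal units. Of the 24 probes of the 9 genes, 22 passed the filter, which asks for a signal well above background on 4 arrays or more, and were tested. The 2 that were not are ANGPT1 probes. All 17 tested endothelial markers were well above background on every array. The filter had already kept only markers well above background on 4 arrays or more, and VWF of the same list had no tested probe. The biopsies differed in their make-up. The mean of 12 smooth muscle markers, each centred on its mean over the 8 cows, was 2.69, -1.27, 1.70 and -0.89 in 5 mM replicates 1 to 4, against 1.29, -1.64, -0.99 and -0.90 in 0 mM replicates 1 to 4. The mean of 10 markers of luminal and glandular epithelium was -3.27 in 5 mM replicate 1, between 0.34 and 0.51 in the other 5 mM cows, and between 0.25 and 0.86 in the 0 mM cows.

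The probes are 60 bases long and lie at different places of each transcript, so their sequences show what each value measures. PGF and LYVE1 had the widest differences between the groups, and the sequences of 4 of their probes are shown with those of TEK and ANGPT1. Capitals mark AATAAA, the usual polyadenylation signal, where a probe holds it. Sequences of probes without an open reading frame are given as a stretch of 30 bases.
PGF probe A_73_P251536: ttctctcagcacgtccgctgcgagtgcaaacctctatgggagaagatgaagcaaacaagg
PGF probe A_73_P110156, bases 1 to 30: ttaaacagaacgtgagagaaagaagacaga
PGF probe A_73_106522, bases 26 to 55: cagattctcttgAATAAAgtattctagtct
LYVE1 probe A_73_P468658: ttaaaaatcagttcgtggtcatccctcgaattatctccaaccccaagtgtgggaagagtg
ANGPT1 probe A_73_P100926: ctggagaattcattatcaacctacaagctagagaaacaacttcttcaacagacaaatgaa
TEK probe A_73_101983, bases 30 to 59: atatagtaagtgAATAAAtgtcttgcctac

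On the Btau_3.1 build, the first PGF probe spans chr10:88670304-88675301 on the minus strand, 4998 bases of genome for 60 bases of probe, so it joins separate exons. The second PGF probe lies at chr10:88670049-88670108 and the third at chr10:88669559-88669618, 430 bases further along the minus strand. The LYVE1 probe lies at chr15:41126069-41126128 and the ANGPT1 probe at chr14:54986036-54986095, both on the plus strand. The TEK probe lies at chr8:17507541-17507600 on the minus strand. AATAAA was found in 3 of the 24 probes in the printed direction (the third is an ANGPT1 probe) and in 4 on the other strand. Of all 43653 probes, 9.35% hold it in the printed direction and 3.46% on the other strand. That ANGPT1 probe, A_73_P045591, has 2 open reading frames, while the PGF and TEK probes that hold AATAAA have none. Another ANGPT1 probe lies 301 bases further along the plus strand, so AATAAA need not be a polyadenylation signal there. No genome of this build was used here, so untranslated regions were not marked.

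No vascular or angiogenic gene passed the test for a difference between cows given 5 mM and cows given 0 mM methylglyoxal. PGF had lower values with 5 mM by all 3 of its probes and VEGFA by all 3 of its own, while LYVE1 and ANGPT1 had higher values. For the brightest probes of PGF and VEGFA the 2 lowest cows, and for those of LYVE1 and ANGPT1 the 2 highest, were 5 mM replicates 1 and 3. These are the 2 cows of the 5 mM group with high smooth muscle markers. In the 0 mM group, replicate 1 also had a high smooth muscle mean (1.29). It had the highest LYVE1 and ANGPT1 of its group, but its PGF (2.20) and VEGFA (-2.79) lay within the range of the other 0 mM cows. A link of these genes to muscle content was not tested. The brightest probes of KDR and ANGPT2 differed by 0.13 and -0.095 between the groups, and those of PECAM1, TEK and EPAS1 by 0.41, -0.43 and -0.31. Adjusted over 31108 probes by Benjamini-Hochberg, limma called 0 of the 22 member probes and 0 of all probes (0%) at the threshold of 0.05, with no adjusted p below 0.913.

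At an unadjusted p under 0.05 there was 1 of 22 member probes, a share of 4.55%, against 595 of 31108 probes (1.91%), of which 298 were higher (0.958%) and 297 lower (0.955%) with 5 mM. This single probe is one for PGF, lower with 5 mM, and the count was 0 without 5 mM replicate 1 or 3 or 0 mM replicate 3 or 4. Leaving out 5 mM replicate 2 gave 4 such probes, and leaving out 5 mM replicate 4 gave 2. Groups without overlap were found for 0 of 22 member probes, against 1.51% of all probes measured on 8 arrays. A difference of at least 2-fold was found for 7 of the 22, all of PGF, LYVE1 or ANGPT1, against 5.31% of all tested probes. The median size of a difference was 0.39 over member probes and 0.19 over all tested probes. Of the 22, 13 lay lower in the 5 mM group and 9 higher, where 46.9% of all tested probes lay lower. By the brightest probe of each gene, 5 genes lay lower and 4 higher. Probes of the same gene are not independent measurements. The members were chosen with earlier results of these data known, so their shares beside those of all probes do not test them as a set.

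**Figure D1:**
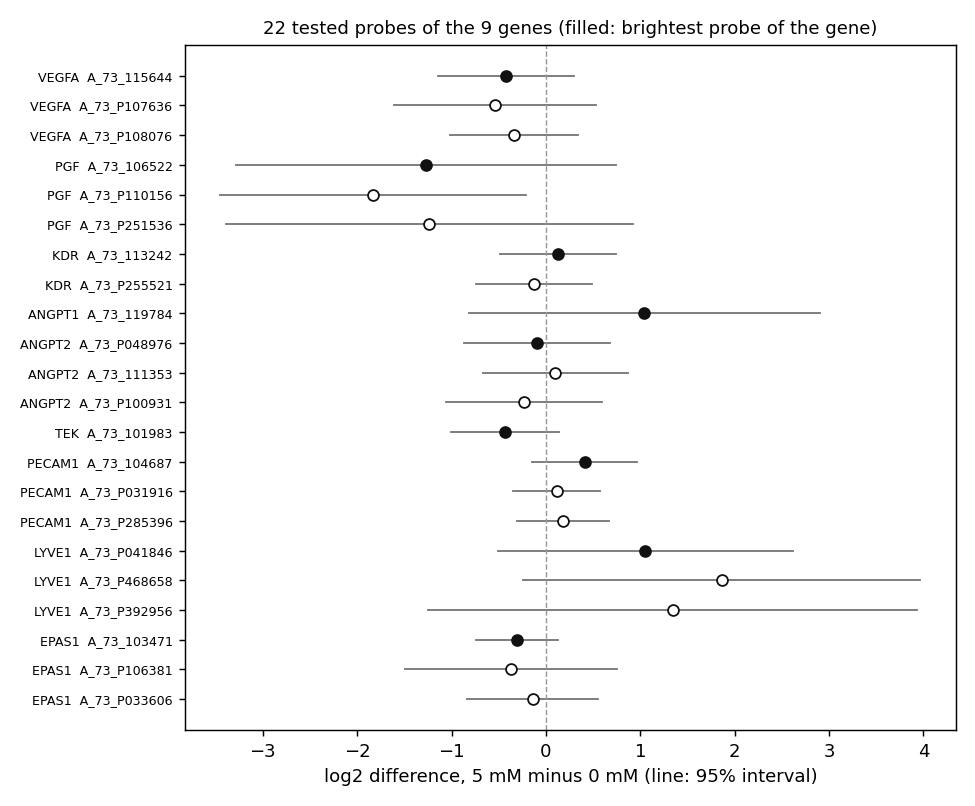
The horizontal axis gives the log2 difference, 5 mM minus 0 mM, of each of the 22 tested probes in rows, with its 95% interval as a line and the brightest probe of each gene filled. Of the 22 intervals, only that of PGF probe A_73_P110156, from -3.45 to -0.21, leaves out 0.

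The growth factors come first. For PGF, the 3′ probe A_73_106522 gave 454, 5983, 2510 and 8968 signal units in 5 mM replicates 1 to 4, against 6704, 4876, 10724 and 9493 in 0 mM replicates 1 to 4. These are levels of -1.21, 2.54, 1.20 and 3.05 with 5 mM, against 2.20, 2.05, 3.33 and 3.08 with 0 mM. Replicates 1 and 3 of the 5 mM group lay below all 4 cows of the 0 mM group, and replicates 2 and 4 lay among them. The group means were 1.39 ± 1.90 with 5 mM and 2.66 ± 0.63 with 0 mM (SD, n = 4 each), a difference of -1.27 ± 0.87 (SE) with a 95% interval from -3.29 to 0.75.

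The middle PGF probe, A_73_P110156, had levels of -4.32, -1.67, -4.17 and -2.06 in the 5 mM cows, against -1.21, -2.06, -0.14 and -1.49 in the 0 mM cows. Here the same 2 cows were again the lowest of all 8. The difference was -1.83 ± 0.70 (SE), which is 3.56-fold, with an unadjusted p of 0.0314 and an adjusted p of 0.913 in the limma test. Its unadjusted p ran from 0.0108 to 0.0839 over the alternatives that have a test, and it was 0.0658 with slide as a block. The exon-joining probe, A_73_P251536, had levels of -6.82, -2.97, -4.40 and -2.35 with 5 mM, against -3.56, -3.61, -2.07 and -2.35 with 0 mM, a difference of -1.24 ± 0.93. It was well above background on 3 of the arrays with 5 mM and on all 4 with 0 mM, and its signal in 5 mM replicate 1 was 9.25 units. After normexp background correction with an offset of 50 units the difference was -0.52. The offset is added to every signal, so it shrinks the log2 difference of a dim probe by construction.

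Levels of 2 marker lists were far from their mean in the cow with the lowest PGF. The lowest cow for all 3 probes was 5 mM replicate 1, whose epithelial marker mean was -3.27 and smooth muscle mean 2.69. Without that cow the differences of the 3′, middle and exon-joining probes were -0.40, -1.41 and -0.34. With the smooth muscle mean as a covariate they were -0.52, -1.32 and -0.42. In bulk tissue, fewer cells of a type and less RNA per cell cannot be told apart.

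**Figure D2:**
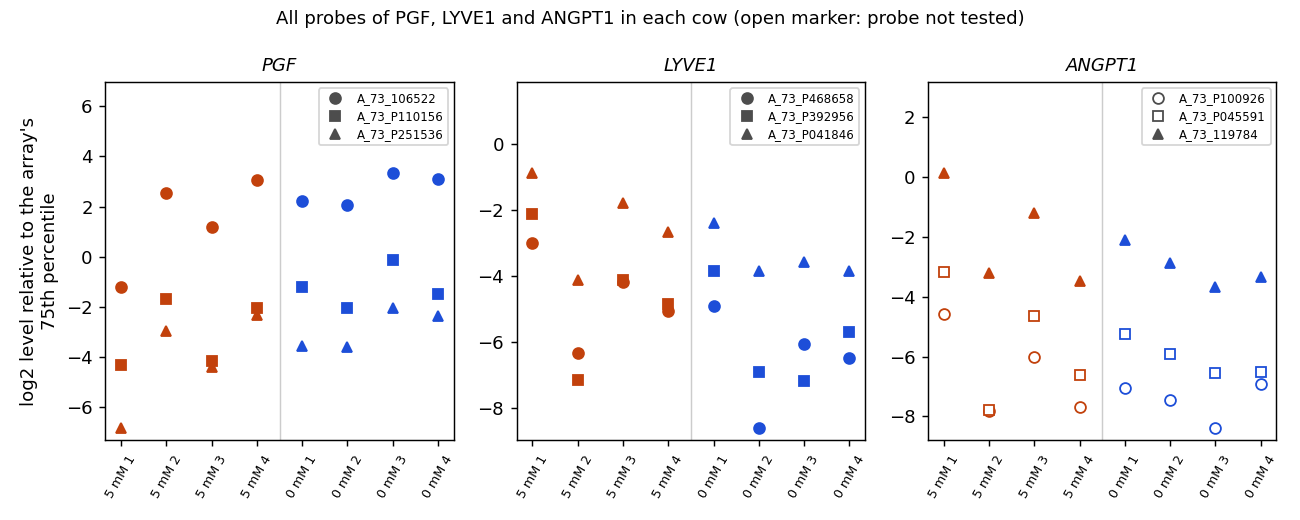
Log2 levels (vertical axis) are shown for each cow (horizontal axis) and each probe of PGF, LYVE1 and ANGPT1, with open markers for the 2 ANGPT1 probes that were not tested. By every probe shown, 5 mM replicate 1 is the lowest cow for PGF and the highest for LYVE1 and ANGPT1.

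VEGFA has 3 probes, of which A_73_115644 and A_73_P108076 share 31 bases and so are not independent measurements. By A_73_115644, at chr23:17910983-17911042, levels were -3.74, -2.41, -3.13 and -2.55 in the 5 mM cows, against -2.79, -2.80, -2.21 and -2.35 in the 0 mM cows. The 2 lowest cows were again 5 mM replicates 1 and 3, and the groups overlapped. The difference was -0.42 ± 0.31 (95% interval -1.15 to 0.30, unadjusted p = 0.216, limma). The other probes gave -0.34 ± 0.29 and -0.54 ± 0.46. After normexp, whose offset of 50 units shrinks differences of dim probes, the differences of A_73_115644, A_73_P108076 and A_73_P107636 were -0.16, -0.10 and 0.024. Without 5 mM replicate 1 they were -0.16, -0.10 and -0.095.

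Among the receptors, KDR encodes the main signalling receptor of VEGFA. Its probe A_73_113242, at chr6:73149108-73149167, had levels of 1.75, 0.93, 0.89 and 1.21 with 5 mM, against 0.54, 0.99, 1.35 and 1.40 with 0 mM. The highest and the lowest of the 8 cows were 5 mM replicate 1 and 0 mM replicate 1, and the other 6 lay between them. The means were 1.20 ± 0.40 with 5 mM and 1.07 ± 0.40 with 0 mM (SD, n = 4 each), a difference of 0.13 ± 0.27 with a 95% interval from -0.49 to 0.74. The second KDR probe had the other sign, at -0.13 ± 0.27. It was well above background on 3 arrays of each group.

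Of the 3 probes annotated as VEGF-receptor (Flt-receptor), all on chromosome 12, 2 were tested. The probe well above background on all 8 arrays, A_73_P077206, had levels of -4.78, -2.79, -3.80 and -2.55 with 5 mM, against -3.46, -3.12, -2.03 and -2.23 with 0 mM. Its 2 lowest cows were the same 5 mM replicates 1 and 3 as for PGF and VEGFA. The difference was -0.77 ± 0.54 (unadjusted p = 0.194, limma), and it was -0.34 without 5 mM replicate 1. The other tested probe, A_73_P451641, was lowest in 5 mM replicate 1 (-8.50) and 0 mM replicate 1 (-7.47), with 5 mM replicate 3 at -6.79. It differed by -0.51 ± 0.76 (unadjusted p = 0.517, limma), and by 0.11 without 5 mM replicate 1. The third, which was not tested, was well above background on 0 arrays with 5 mM and 2 with 0 mM. In these 8 cows the bound explained below for ANGPT1 put its mean 1.04-fold lower with 5 mM. That value is not a strict lower limit and leaves out the spread between cows. The levels of this probe in 0 mM replicates 1 to 4 were -8.53, -7.08, -3.69 and -6.33, and the groups overlapped.

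TEK, the angiopoietin receptor, has 1 probe, whose 3′ stretch is printed above. Its levels were -1.27, -0.36, -0.53 and -0.27 in the 5 mM cows, against -0.43, -0.32, -0.0041 and 0.06 in the 0 mM cows. The 2 highest cows belonged to the 0 mM group and the 2 lowest were 5 mM replicates 1 and 3, while the middle values were mixed. The difference was -0.43 ± 0.25 (95% interval -1.01 to 0.14, unadjusted p = 0.118, limma). It was -0.21 without 5 mM replicate 1, and within slides 1, 2 and 3 it was -0.84, -0.20 and -0.46.

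Of the angiopoietins, ANGPT1, made mainly by cells around the vessel, had levels by A_73_119784 of 0.13, -3.20, -1.21 and -3.49 with 5 mM, against -2.09, -2.86, -3.67 and -3.33 with 0 mM. The 3 highest cows were 5 mM replicates 1 and 3 and 0 mM replicate 1, the same 3 cows, in the same order, that had the 3 highest smooth muscle means. The group means were -1.94 ± 1.71 with 5 mM and -2.99 ± 0.68 with 0 mM (SD, n = 4 each), a difference of 1.04 ± 0.81 with an interval from -0.81 to 2.90. With the smooth muscle mean as a covariate this difference was 0.24, and without 5 mM replicate 1 it was 0.35. Within slides 1, 2 and 3 it was 2.22, 0.064 and 0.98.

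The 2 other ANGPT1 probes, which were too dim to be tested, were highest in 5 mM replicates 1 and 3. A_73_P100926 was well above background on 2 arrays with 5 mM and 0 with 0 mM. In these cows the bound put its mean 1.14-fold higher with 5 mM, and the groups overlapped. For such a probe the bound is the mean of the brighter group over that of the dimmer group, in which each array takes the higher of the probe's own signal and the lowest signal well above background. The brighter group keeps its own signals, also on arrays not well above background, so the value is not a strict lower limit. This bound leaves out the spread between cows.

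ANGPT2, released by endothelial cells, had levels by A_73_P048976 of -3.03, -2.14, -2.21 and -1.83 with 5 mM, against -2.63, -1.65, -1.88 and -2.67 with 0 mM. The lowest cow was 5 mM replicate 1 and the highest 0 mM replicate 2, and the groups overlapped. The difference was -0.095 ± 0.34 with an interval from -0.87 to 0.68, and the other 2 probes gave 0.098 ± 0.33 and -0.23 ± 0.36. Within each array, the ANGPT2 level minus the ANGPT1 level was -3.16, 1.06, -1.00 and 1.65 with 5 mM, against -0.54, 1.21, 1.78 and 0.65 with 0 mM. The mean of this log ratio was -0.36 ± 2.18 with 5 mM and 0.78 ± 0.99 with 0 mM (SD, n = 4 each), a difference of -1.14 (exact permutation p = 0.371, two-sided, where 4 against 4 can reach 0.0286). With the smooth muscle mean as a covariate the difference was -0.068.

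**Figure D3:**
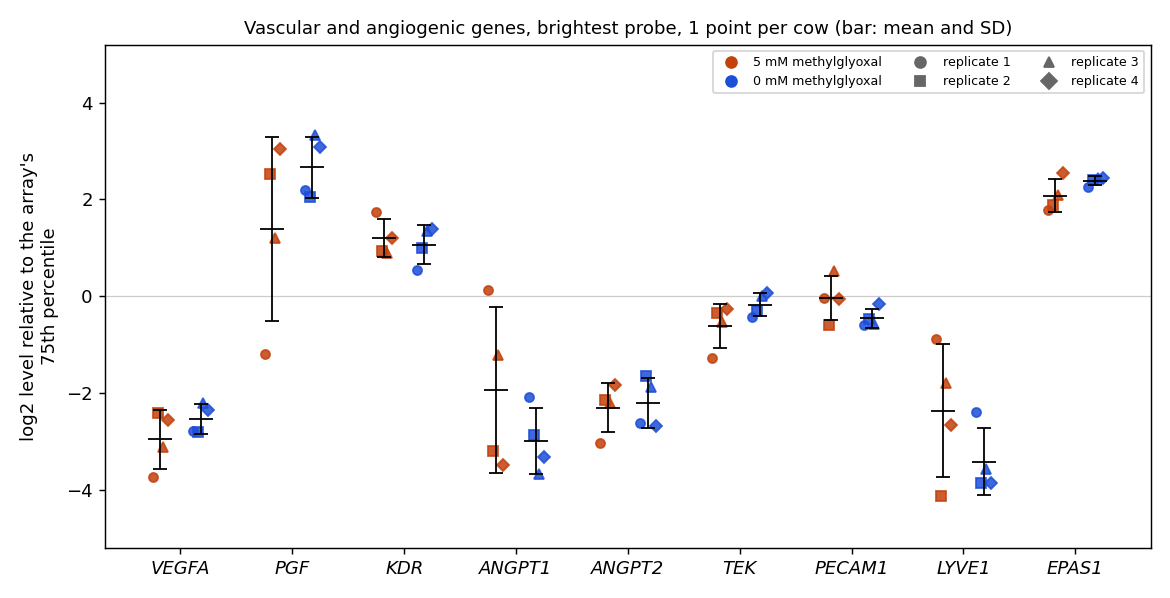
The vertical axis is the log2 level of the brightest probe of each of the 9 genes, with 1 point per cow, marker shape for the replicate number, and bars for the mean and SD of 4 cows. PGF, ANGPT1 and LYVE1 spread widely in the 5 mM group, and the groups overlap in all 9 genes.

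Among the markers of vessel cells, PECAM1 had levels by A_73_104687 of -0.03, -0.60, 0.51 and -0.05 with 5 mM, against -0.60, -0.47, -0.58 and -0.17 with 0 mM. In the 5 mM group, all cows but replicate 2 lay above all 4 cows given 0 mM, and 5 mM replicate 2 was level with the lowest of them. The difference was 0.41 ± 0.24 (interval -0.14 to 0.97, unadjusted p = 0.126, limma). Leaving out 1 cow at a time, it ran from 0.23 without 5 mM replicate 3 (unadjusted p = 0.316, limma) to 0.60 without 5 mM replicate 2 (unadjusted p = 0.0240, limma), and with slide as a block it was 0.27. The other PECAM1 probes gave 0.12 ± 0.20 and 0.18 ± 0.21. Leukocytes carry this protein too, and 10 of 12 leukocyte markers had lower values with 5 mM, with list means between -0.53 and -0.13 in the 5 mM cows and between -0.08 and 0.53 in the 0 mM cows. Their part in the PECAM1 values was not tested.

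LYVE1 had levels by A_73_P041846, at chr15:41134675-41134734, of -0.89, -4.12, -1.79 and -2.66 with 5 mM, against -2.39, -3.86, -3.57 and -3.86 with 0 mM. As for ANGPT1, the 3 highest cows were 5 mM replicates 1 and 3 and 0 mM replicate 1. Its difference was 1.05 ± 0.68 (interval -0.51 to 2.61, unadjusted p = 0.159, limma), and it was 0.36 with the smooth muscle mean as a covariate and 0.56 without 5 mM replicate 1. Within slides 1, 2 and 3 it was 1.50, -0.41 and 1.63.

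The LYVE1 probe printed above, A_73_P468658, had levels of -3.00, -6.35, -4.18 and -5.07 with 5 mM, against -4.90, -8.60, -6.06 and -6.48 with 0 mM. Its difference was 1.86 ± 0.91, or 3.63-fold (unadjusted p = 0.0761, adjusted p = 0.913, limma), and the third probe gave 1.34 ± 1.12. The unadjusted p of A_73_P468658 ran from 0.0291 to 0.187 over the tested alternatives other than the replicate block, which is given with the settings at the end. The lowest values lie near background, since the probe was well above it on 4 arrays with 5 mM and 3 with 0 mM. After normexp background correction the difference was 0.57, where the offset of 50 units by itself shrinks differences of signals this low. Normexp gave 0.45 for the third probe and 0.87 for A_73_P041846.

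EPAS1, the transcription factor gene, had by A_73_103471, at chr11:29906737-29906796, levels of 1.78, 1.88, 2.09 and 2.56 with 5 mM, against 2.25, 2.39, 2.45 and 2.44 with 0 mM. All cows given 5 mM but replicate 4 lay below all 4 given 0 mM, and 5 mM replicate 4 lay above them. The difference was -0.31 ± 0.19 (interval -0.75 to 0.13, unadjusted p = 0.143, limma). With 1 cow left out at a time, it lay between -0.21 without 5 mM replicate 1 (unadjusted p = 0.289, limma) and -0.47 without 5 mM replicate 4 (unadjusted p = 0.0174, limma). The dimmer EPAS1 probes, one of which spans 270 bases of genome, gave -0.37 ± 0.49 and -0.14 ± 0.30.

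The 9 genes differed in how much they varied between cows of a group. The pooled within-group SD was 0.25 for EPAS1, 0.35 for PECAM1, 0.36 for TEK and 0.40 for KDR by their brightest probes, beside a median of 0.36 over all tested probes. It was 0.48 for VEGFA and 0.52 for ANGPT2. LYVE1, ANGPT1 and PGF had SDs of 1.09, 1.30 and 1.42, larger than those of 90.9%, 93.7% and 94.8% of tested probes. The 95% interval of a difference reached 0.44 to 2.59 to each side over the 22 probes.

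**Figure D4:**
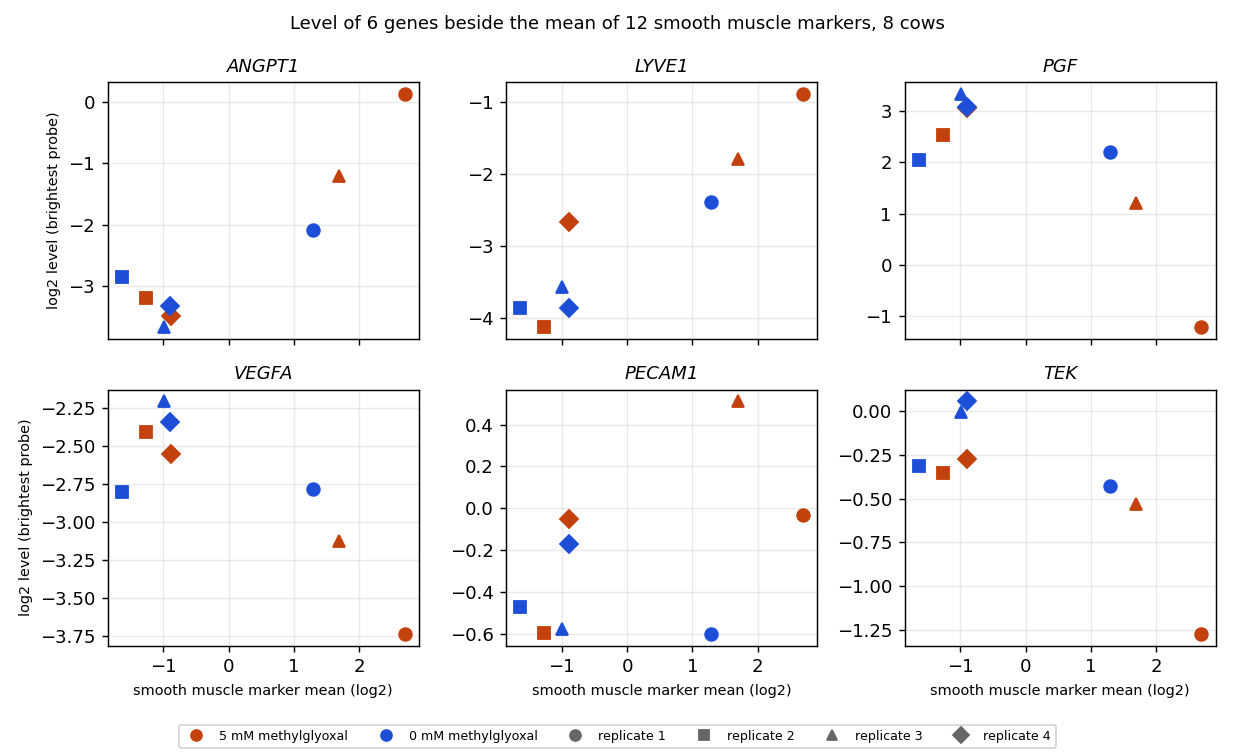
Each panel sets the log2 level of one gene (vertical axis) against the mean of the 12 smooth muscle markers (horizontal axis, log2, centred) for the 8 cows. The 3 cows with marker means of 1.29 to 2.69 have the 3 highest levels of ANGPT1 and of LYVE1, and 5 mM replicate 1 has the lowest level of PGF, VEGFA and TEK.

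Genes with the most similar pattern to each gene were found by Pearson's r of levels over the 8 arrays, among 30839 tested probes, as a description with no test. Probes without a symbol or with a LOC symbol were passed over. For ANGPT1 these were FGL2 (r = 0.997), FBXO32 and ORC6, for PGF they were SDK1 (r = 0.995), PACSIN1 and GRTP1, and for TEK they were ARSA (r = 0.993), NADK and NRG1. VEGFA was nearest to AMDHD2 (r = 0.988), PAX8 and IDH2, and LYVE1 to MRPL11 (r = 0.985), MDM2 and NCBP1. KDR came closest to HTRA1, SUMF1 and LAMA4 (r = 0.979, 0.979 and 0.968). The highest r was 0.979 for ANGPT2 (NHP2, C8H9orf40 and YPEL5), 0.974 for PECAM1 (BRIX1, BPTF and CACFD1) and 0.965 for EPAS1 (SF3B3, ERAP1 and SLC37A3). The 8 points of each r share the arrays and their make-up. The highest r was 0.965 or more for every gene, so with 8 points a high r does not set any of these genes apart.

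Other genes of the same pathways were read from 6 lists. No gene of the 6 lists passed the adjusted threshold, and none had an unadjusted p under 0.05 (limma). Of 13 partners of the VEGF and angiopoietin system, 7 had higher and 6 lower values with 5 mM, with a median of 0.0031, beside a median of 0.021 over all tested probes. They included PDGFB (-0.18 ± 0.18), which recruits pericytes, VEGFC (0.28 ± 0.29), the lymphatic growth factor, NRP2 (1.20 ± 1.32), a VEGF coreceptor, and FGFR1 (0.66 ± 0.73). NRP2 was highest in 5 mM replicate 1, 5 mM replicate 3 and 0 mM replicate 1, at 4.44, 2.76 and 2.32, and between -1.06 and -0.39 in the others. FGFR1 was highest in the same cows, at 3.18, 1.85 and 1.27, and between -0.11 and 0.45 in the others.

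Of 17 tested endothelial markers, 14 had lower values with 5 mM (median -0.24), and VWF had no tested probe. They included ROBO4 (-0.45 ± 0.31), CD34 (-0.40 ± 0.27), MMRN2 (-0.42 ± 0.30) and, with a higher value, the endothelial tight junction gene CLDN5 (0.38 ± 0.28). SOX17, a transcription factor of arterial endothelium that uterine epithelium also expresses, differed by -1.32 ± 1.08. It was at -5.12 in 5 mM replicate 1, the cow with low epithelial markers, and between -0.64 and -0.31 in the other 5 mM cows, against -0.91 to 0.95 in the 0 mM cows. The mean of the list was -0.82 in that cow and between 0.01 and 0.15 in the other 5 mM cows, against -0.20 to 0.31 in the 0 mM cows, and the median difference was -0.042 without it and -0.45 without 0 mM replicate 1.

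Lymphatic markers had 5 of 8 genes tested, with PROX1, STAB2 and MMRN1 not among them. Of the 5, 4 had higher values with 5 mM (median 0.44). This median was 0.24 without 5 mM replicate 3, and within slides 1, 2 and 3 it was -0.082, -0.10 and 0.46. CCL21, the chemokine of lymphatic endothelium, had levels of -1.64, -6.50, -1.56 and -5.22 with 5 mM, against -2.21, -8.02, -4.71 and -8.33 with 0 mM. Its 3 highest cows were those with the 3 highest LYVE1 levels, and the difference was 2.09 ± 1.67. The CCL21 probe was well above background on 4 arrays with 5 mM and 2 with 0 mM, so the size of this difference rests in part on signals near background. NR2F2 (0.44 ± 0.27), RELN (0.53 ± 0.37) and PDPN (0.30 ± 0.32) were the others with higher values, PDPN with 3 cows in the 5 mM group because 1 spot was marked as an outlier.

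Notch, ephrin and guidance genes split into 4 higher and 7 lower of 11 (median -0.090). DLL4, the Notch ligand of sprouting tip cells, differed by -0.58 ± 0.39, the ligand gene JAG1 by 0.26 ± 0.16, the Notch target HEY2 by 0.24 ± 0.17 and the guidance cue SLIT2 by 1.37 ± 0.94. Of 6 antiangiogenic genes, 3 had higher and 3 lower values (median 0.0038), among them THBS2 (0.44 ± 0.27), THBS1 (0.23 ± 0.29), SERPINF1 (-0.56 ± 0.64) and COL18A1 (-0.12 ± 0.16), the source of endostatin. Of 17 genes of the hypoxia inducible factor system, 11 had higher and 6 lower values (median 0.070). PDK1, which holds back pyruvate oxidation, had the lowest p of the 6 lists, with levels of 0.27 ± 0.26 with 5 mM and -0.055 ± 0.050 with 0 mM (SD, n = 4 each), a difference of 0.33 ± 0.16 (unadjusted p = 0.0750, limma). ADM, EGLN2 and HIF3A gave 0.26 ± 0.23, 0.20 ± 0.14 and 1.01 ± 0.91. HIF3A was highest in 5 mM replicate 1, 5 mM replicate 3 and 0 mM replicate 1, at 3.75, 1.96 and 1.95. In the others it lay between -0.26 and 0.15. SLIT2 was highest in the same cows, at 2.58, 1.30 and 0.57, and between -1.87 and -1.13 in the others.

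**Figure D5:**
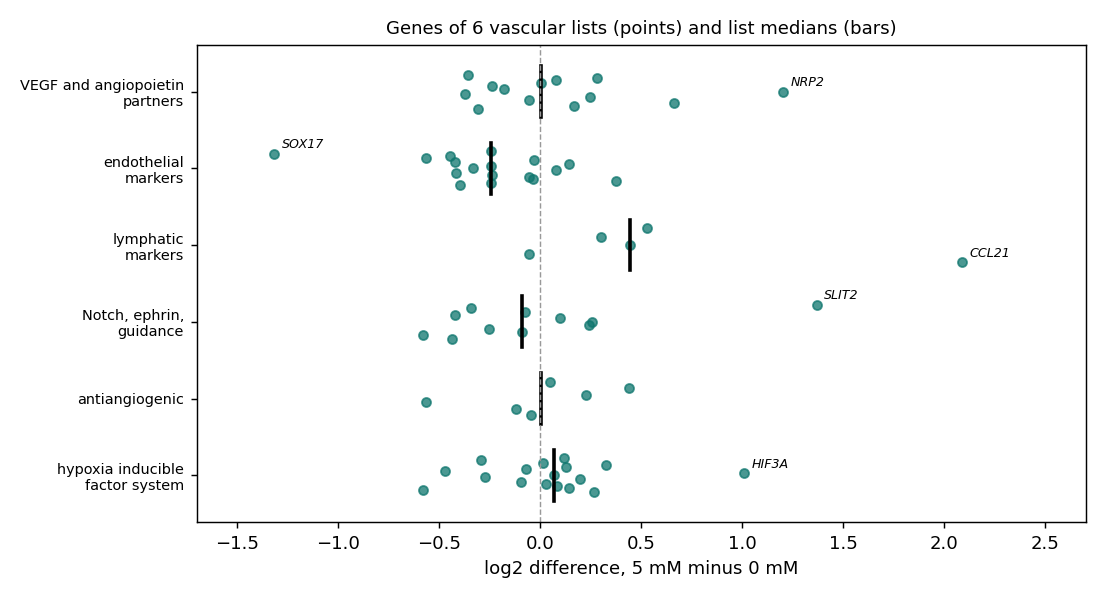
Each point is the log2 difference, 5 mM minus 0 mM, of a gene of one of 6 lists (rows), and each bar a list median. Medians lie between -0.24 and 0.44, and the labelled genes are those at least 2-fold apart, none of which passed the test.

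Markers of the cells that lie next to vessels were read as well. Of 6 tested pericyte markers, 4 had higher and 2 lower values with 5 mM, with a median of 0.056. The largest difference in size was that of RGS5, at -1.00 ± 0.57. List means lay between -0.24 and 0.14 in the 5 mM cows and between -0.50 and 0.48 in the 0 mM cows, with group means of -0.036 and 0.036. The 3 red blood cell genes measured had means between -1.52 and 1.57 in the 5 mM cows and between -1.04 and -0.06 in the 0 mM cows. All 12 smooth muscle markers had higher values with 5 mM (median 1.09), all 10 epithelial (median -1.11) and all 8 ciliated cell markers (median -1.01) lower ones, and none of these lists held a gene past the adjusted threshold. Stromal fibroblast means ran from -0.33 to 0.90 with 5 mM and from -0.44 to 0.06 with 0 mM.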

How the data were processed

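Endometrial RNA of 8 cows was measured on one-colour Agilent arrays whose probe coordinates follow Btau_3.1. The deposited values are spot intensities that Feature Extraction background-subtracted and detrended, not scaled from array to array, per the file headers. These headers name version 11.5.1.1, and the submitters' processing notes name 10.5.1.1. The deposited table of log2 values, used only as an alternative, correlated with the log2 processed intensities, shifted and centred on each probe's median, at r of at least 0.9995. In that table the column medians of the 5 mM cows, by replicate, were 0.13, -0.0049, -0.011 and 0.013, and those of the 0 mM cows -0.016, -0.023, 0.00088 and -0.0062.

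Control spots and outlier spots were left out, spots of a probe averaged on the log2 scale, and the log2 75th percentile of all noncontrol spots subtracted. Probes well above background on at least 4 of 8 arrays were tested with limma 3.58.1 in R 4.3.3 (lmFit, eBayes, Benjamini-Hochberg over 31108 probes, threshold 0.05). The intervals use limma's moderated standard errors. Symbols were updated with a RefSeq table of ARS-UCD2.0 (34108 of 43653 probes), and a list gene was read from its tested probe with the highest mean. The members and lists were chosen with earlier results of these data known. All probes of the members, the 4 lowest p and the largest difference of each list, and the 3 genes of most similar pattern were named. The number of arrays limits the precision. The arrays lay on 3 slides: the first with the cows numbered 1, the second with 5 mM replicate 2 beside 0 mM replicates 2 and 3, and the third with the rest. Alternatives changed the normalization, background correction, filter, variance model, value source, slide, replicate block, smooth muscle covariate, probe summary and each cow in turn. The background correction was normexp with an offset of 50 units.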

Additional observations from a re-analysis of the deposited data

Results flagged for a closer look

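In the 5 mM group, replicate 1 stood apart from the other 3 cows in 2 marker lists, as the gap to the nearest cow took up most of the group's range. Its mean was -0.82 for the endothelial markers, where the nearest cow was at 0.0089, and -3.27 for luminal and glandular epithelium, where the nearest was at 0.34. In the 0 mM group, replicate 3 stood apart in the mean of the 3 red blood cell genes, at -1.04, with the nearest cow at -0.22. Of 82 sets of 4 cows looked at in this way, 3 were picked out, and chance picks out about 1 in 20. No probe of the 9 vascular and angiogenic genes was among them.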

How the results depend on the processing

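No member probe and no other probe had an adjusted p under 0.05 under any of the 18 alternatives with a test. The count of all probes at an unadjusted p under 0.05 was 595, and it was 1067 without a filter, 1026 with slide as a block, 1221 with the replicate block, and 376 to 1528 without 1 cow. For member probes this count was 1, and it was 0 with the smooth muscle covariate, 2 with slide as a block (LYVE1 and TEK), 2 with the replicate block (both LYVE1) and 0 to 4 without 1 cow. With the replicate block the unadjusted p in the limma fit across all probes was 0.000147 for LYVE1 A_73_P468658 and 0.0360 for A_73_P041846. Same-numbered cows did not all deviate together (r = 0.40, 0.36, -0.30 and 0.31 for numbers 1 to 4). Differently numbered cows had r from -0.49 to 0.33, so this check does not settle whether the numbers are pairs. The labels give each sample its own cow and name no pairs, so the numbers were not taken as pairs. With 1 cow of each group per number, the replicate block leaves each difference as it is by construction (-1.14 for ANGPT2 minus ANGPT1) and moves only its p. The ANGPT2 minus ANGPT1 difference kept its sign under the other alternatives, at -1.81 to -0.21 without 1 cow and -2.62 to -0.068 otherwise.

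Of 506 alternative values of the 24 tested probes, Flt-receptor included, 40 had the other sign, in 15 probes, and the cause was not tested. No probe of PGF, TEK or ANGPT1 was among them. With normexp, whose offset of 50 units weighs most on dim probes such as these, they were EPAS1 A_73_P033606 (0.032), KDR A_73_P255521 (0.13) and VEGFA A_73_P107636 (0.024). With the smooth muscle covariate they were Flt-receptor A_73_P451641 (0.19), ANGPT2 A_73_P048976 (0.17) and A_73_P100931 (0.072), EPAS1 A_73_P106381 (0.086) and A_73_P033606 (0.076), and PECAM1 A_73_P031916 (-0.012). Within slide 1 they were ANGPT2 A_73_111353 (-0.34) and KDR A_73_P255521 (0.85). Within slide 2 they were Flt-receptor A_73_P451641 (0.13), ANGPT2 A_73_111353 (-0.17), KDR A_73_113242 (-0.24), LYVE1 A_73_P392956 (-0.11) and A_73_P041846 (-0.41), PECAM1 A_73_104687 (-0.075) and A_73_P031916 (-0.24), and VEGFA A_73_P107636 (0.22) and A_73_115644 (0.094). Within slide 3 they were ANGPT2 A_73_P048976 (0.65) and A_73_P100931 (0.48), EPAS1 A_73_P033606 (0.0020), KDR A_73_113242 (-0.35) and PECAM1 A_73_P285396 (-0.076). Leaving out 1 cow gave ranges that cross 0 for ANGPT2 A_73_111353 (-0.042 to 0.37), A_73_P048976 (-0.25 to 0.15) and A_73_P100931 (-0.39 to 0.045), EPAS1 A_73_P106381 (-0.67 to 0.048) and A_73_P033606 (-0.38 to 0.095), KDR A_73_113242 (-0.057 to 0.24) and A_73_P255521 (-0.35 to 0.057), PECAM1 A_73_P031916 (-0.013 to 0.25) and Flt-receptor A_73_P451641 (-0.96 to 0.11). The medians of the endothelial and hypoxia lists kept their sign under all alternatives and those of the other 4 lists did not. Each slide held 1 or 2 arrays of a group, so values within a slide have no test.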
